A study of Mus musculus with 44 samples.

Results

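The comparison described here set extraembryonic cells of the colon at E13.5, from embryos in which Trp53 had been targeted (exColon, n = 3 libraries), against extraembryonic cells of the wild-type hindgut at E9.5 (exHindgut, n = 4). These 7 libraries were chosen by their titles, out of 44 low-input RNA libraries in the series. The series followed mouse gut cells of extraembryonic origin, which arise from the visceral endoderm and intercalate into the embryonic endoderm, and asked how they differ from their embryonic neighbours and what becomes of them. Embryonic cells taken at the same stages served as the point of reference (emHindgut, n = 4, GFP-positive cells with a low mCherry signal, and emColon, n = 3, GFP-positive cells).

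Embryos were made by aggregating an mCherry-positive morula (CD1/G4 in the labels, from an mCherry colony that was maintained by mating to C57BL/6J) with GFP-positive embryonic stem cells (G4 in the labels, F1G4 in the methods), which form the embryo proper but not the extraembryonic lineages. Gut cells with mCherry and without GFP were taken as extraembryonic. Cells with GFP and some mCherry were treated by the study as embryonic cells that hold remnants of extraembryonic ones, and emHindgut is the low-mCherry fraction of these. The morula was the component that was electroporated with Cas9 and 3 guide RNAs against Trp53 exons in the E13.5 mutants. The embryonic cells of the same animals were wild type for Trp53. Each exColon library came from the colon of 1 embryo and held EPCAM-positive, mCherry-positive sorted cells, whereas each exHindgut library pooled 4 embryos, started from the most posterior piece of the body including the hindgut, and was enriched on EPCAM beads before the same sort. Stage, Trp53 genotype, pooling, dissected tissue and bead enrichment all changed together between exHindgut and exColon and cannot be told apart in this comparison. Cas9 editing in zygotes can leave several alleles in 1 embryo, and the TPM of a gene does not show its reading frame. The labels describe the libraries as separate embryos or pools, so the spread between them includes biological variation. As these are bulk samples, fewer cells of a type and less RNA per cell cannot be told apart.

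The hindgut is the posterior end of the endodermal tube. At the earlier stage it lies beside the tail bud, the growth zone that lengthens the body axis under Wnt, FGF and retinoic acid signals. Later it forms the colon, whose epithelium starts to produce digestive, absorptive and secretory proteins. p53, encoded by Trp53, is a transcription factor that answers damage and stress by raising genes for cell cycle arrest and cell death, among them Cdkn1a, which encodes the inhibitor p21.

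The 7 libraries held 3.528 to 12.04 Gb of aligned bases, as implied by the deposited coverage, and between 11345 and 13483 genes above 1 TPM (transcripts scaled to a common library total). The exColon libraries were the more uneven group: the median SD of a gene within the group was 0.627 on the log2(TPM + 1) scale against 0.347 in exHindgut, and pairwise Pearson correlations of replicates across genes were 0.83 to 0.854 against 0.936 to 0.944. Between 869 and 1257 tested genes were listed at 0 in an exColon library, compared with 161 to 224 in an exHindgut library. Some of these were abundant in the other replicates: 7, 15 and 11 genes at 0 in exColon replicates 1, 2 and 3 were at 20 TPM or more in both of the others. A single 0 in exColon is therefore given below as a listed value, next to its replicates.

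The reporters matched the labels. mCherry was at 2624, 3306 and 6081 TPM in exColon and at 6775, 7458, 6991 and 7031 TPM in exHindgut, against 0 in every emColon library and at most 6.61 TPM in emHindgut. EGFP was at 0 in all exColon libraries and at no more than 2.38 TPM in exHindgut, whereas emColon held 440 to 522 TPM. Xist, the RNA that silences an X chromosome, was at 42.4 to 75.0 TPM in exHindgut and at 0 to 1.37 TPM in exColon, while the summed TPM of Y-linked coding genes was 370 to 818 and 719 to 1165, respectively. The labels give no sex, and the part of embryo sex in any difference below was not tested. Y-linked genes were left out of all tests.

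Trp53 (chr11:69580359-69591873, mm10) was at 42.5, 124 and 122 TPM in exColon and at 226, 230, 259 and 209 TPM in exHindgut. Every exColon library lay below every exHindgut library, and the transcript was still present in all 3. The mean was 2.40-fold lower, a log2 difference of -1.40 ± 0.33 (SE) with an adjusted p of 0.0223 (limma over all 12392 genes tested). The call did not hold without exColon replicate 1, where the difference fell to -0.90 (adjusted p = 0.0078, under the 2-fold limit), or without any one of exHindgut replicates 1 to 4 (adjusted p = 0.0615, 0.0627, 0.0686 and 0.0557). In the Trp53 wild-type embryonic cells, Trp53 was at 151, 226 and 245 TPM in emColon and 227 to 256 TPM in emHindgut, and the exColon change was not distinguishable from the embryonic one (difference of changes -1.17 ± 0.41, adjusted p = 0.193).

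**Figure D1:**
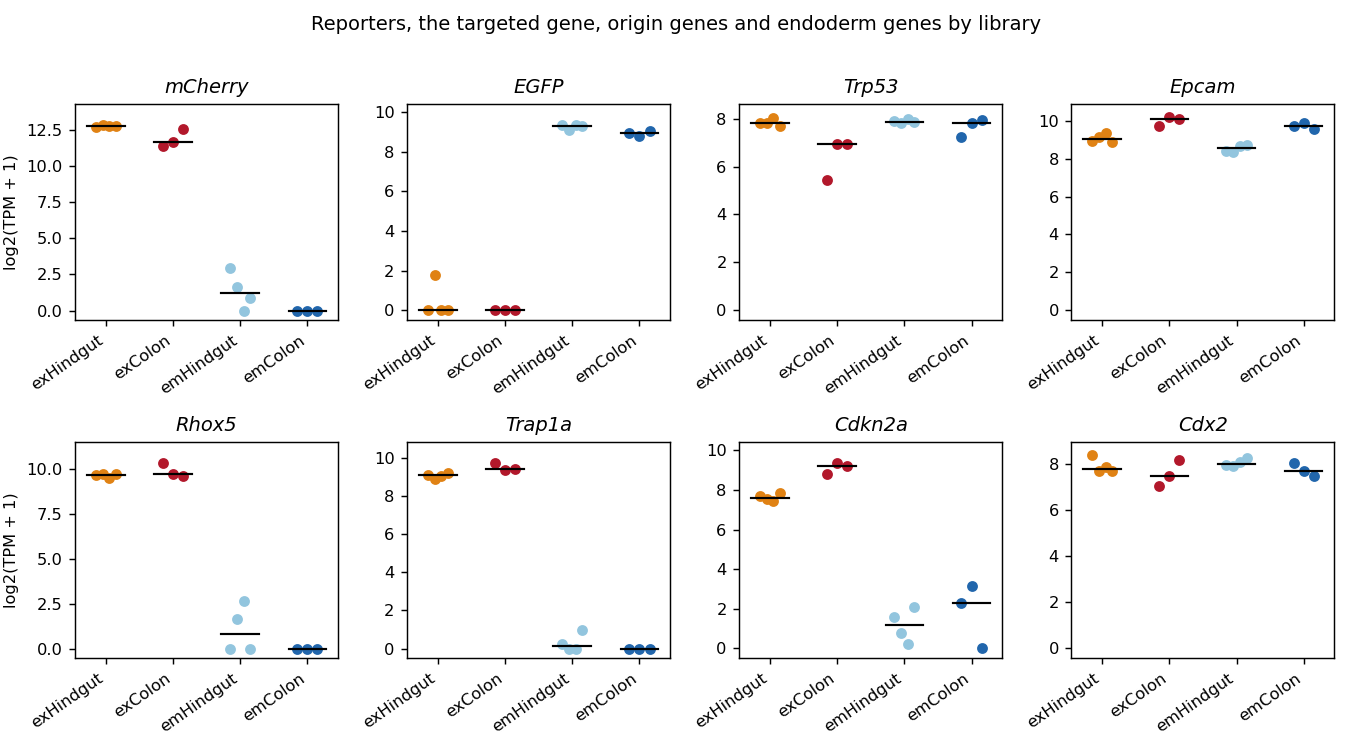
Expression of 8 genes as log2(TPM + 1) in each exHindgut, exColon, emHindgut and emColon library; each point is 1 library and the black line is the group median. mCherry, Rhox5, Trap1a and Cdkn2a are high in both extraembryonic groups, EGFP only in the embryonic ones, and Trp53 is lower in all 3 exColon libraries than in any other library shown.

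The epithelial label held, while the markers say little on colon against hindgut. Of 13 markers of colon epithelium, 10 were above 1 TPM in all 3 exColon libraries, among them Epcam, Cdh1, Krt8, Krt18, Krt19, Cdx2, Vil1, Foxa1 and Foxa2, and the same 10 were above 1 TPM in all 4 exHindgut libraries. Epcam, the sorting antigen, was at 848, 1180 and 1113 TPM in exColon and 492, 563, 659 and 479 TPM in exHindgut. Cdx2, the master regulator of intestinal identity, was at 132, 179 and 290 TPM against 334, 205, 231 and 205 TPM, and did not pass the test (-0.33 ± 0.27, adjusted p = 0.471). Cdx1 and Hoxd13, by contrast, were at 0 in all 3 exColon libraries, and Cdh17, an intestinal cadherin, exceeded 1 TPM in 2 of them and was at 0 in every exHindgut library.

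Across 12392 genes tested, 1281 (10.3%) were called between exColon and exHindgut at an adjusted p under 0.05 and a more than 2-fold change. Of these, 450 were higher (3.63% of the genes tested) and 831 lower (6.71%) in exColon, that is, 35.1% of the calls were rises. The median log2 difference over all genes tested was -0.21, and the balance of rises and falls moved with the scaling: 522 rises and 729 falls after median-ratio rescaling (median -0.10), and 636 rises and 591 falls after quantile normalization (median -0.04). List medians below are set against these values. Leaving out exHindgut replicate 1, 2 or 4 brought the number of calls to 841, 828 or 853.

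Genes of the posterior growth zone fell in exColon. Of 12 tail bud genes, 11 were tested and 10 fell, none rose, and 9 of the 12 were listed at 0 in all exColon libraries. Fgf8 (chr19:45736798-45742915), the fibroblast growth factor that maintains the tail bud, was at 591, 431, 376 and 321 TPM in exHindgut and at 0 in each exColon library (adjusted p = 4.02e-07). T, the brachyury transcription factor of the primitive streak and tail, was at 286, 163, 141 and 195 TPM and at 0 in all 3 exColon libraries (adjusted p = 1.98e-06). The groups were far apart for both genes, and exColon held no listed signal. Fgf17 behaved alike, with 246, 132, 116 and 136 TPM in exHindgut and 0 throughout exColon (adjusted p = 4.29e-06).

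For tail bud genes that kept some signal, the size of the fall could be measured. Wnt5b, a Wnt ligand, went from 272, 282, 229 and 177 TPM in exHindgut to 0.995, 0.247 and 0 TPM (log2 difference -7.45 ± 0.35, adjusted p = 1.98e-06). Cyp26a1, which degrades retinoic acid in the tail bud, went from 231, 218, 265 and 196 TPM to 7.91, 0 and 0 TPM (-6.78 ± 0.67, adjusted p = 2.29e-04). The exColon signal for Cyp26a1 thus came from replicate 1 alone. Nkx1-2, the tested member that was not called, did not exceed 2.57 TPM in exHindgut. Summed over the 12 genes, TPM was 1207 to 1823 in exHindgut and 3.97 to 9.14 in exColon. The same genes fell in the embryonic cells of the same stages, where all 12 were tested and 12 fell (list median -6.31, against -6.03 here); of 12366 genes tested there, 20.7% were called, 4.16% higher and 16.6% lower in emColon.

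The signal of the listed mesenchyme markers was lower in exColon as well. Summed over 10 mesenchyme markers it was 40.8 to 55.9 TPM in exHindgut and 1.84 to 13 TPM in exColon, and of 7 tested markers 2 fell, Acta2 and Pdgfra. In the embryonic cells 6 of 7 tested markers fell, where 16.6% of all genes tested did. Postn, a matrix gene outside this list, rose in exColon, as given below. Col1a1, Col1a2, Col3a1, Pdgfra and Lum were listed at 0 in all exColon libraries. Acta2, smooth muscle actin, went from 32.1, 27.7, 12.3 and 15.2 TPM to 0, 0 and 0.523 TPM. Of 10 neural and enteric neuron markers, 5 were tested and 1 fell (2 without exColon replicate 1), Ednrb, with 2.78, 5.10, 4.74 and 9.69 TPM in exHindgut and 0 in exColon. The part of these cells in the posterior and signalling results was not tested.

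Posterior Hox genes fell together. Of 18 Hox genes of groups 7 to 13, 17 were tested, 14 fell and none rose, with a median log2 difference of -3.78 against -0.21 over all genes tested. Hoxc10, which patterns the posterior trunk, was at 88.4, 93.2, 103 and 62.7 TPM in exHindgut and at 0 in every exColon library (adjusted p = 1.41e-05). Hoxd13, the most 5′ gene of its cluster and a marker of the terminal hindgut, was at 20.2, 56.9, 38.8 and 34.0 TPM against 0 in all 3 (adjusted p = 1.77e-04). The groups did not overlap for either gene. Hoxa10 kept the highest level in exColon, at 15.4, 73.0 and 29.8 TPM compared with 285, 209, 196 and 233 TPM (-2.78, adjusted p = 0.0024). Hoxc8, Hoxc9 and Hoxd11 were each at 0 in exColon replicates 1 and 2 and at 1.95, 0.466 and 0.958 TPM in replicate 3, with exHindgut libraries between 36.4 and 68.1 TPM. In the embryonic cells 16 of 18 tested posterior Hox genes fell and 1 rose.

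Wnt pathway genes were mostly lower in exColon. Of 15 intestinal stem cell and Wnt target genes, 14 were tested: 8 fell, 1 rose and 5 did not pass, with a median of -2.32. Of all genes tested, 6.71% fell and 3.63% rose. Nkd1, a feedback inhibitor of Wnt signalling, went from 46.0, 54.8, 41.5 and 40.0 TPM to 0.547, 0 and 0 TPM (-5.32 ± 0.43, adjusted p = 6.60e-05). Lef1, a transcription factor that carries the Wnt signal, went from 125, 218, 164 and 197 TPM to 10.2, 0 and 8.83 TPM (-5.17 ± 0.72, adjusted p = 0.00158). Both genes separated the groups fully. Lgr4, a receptor for R-spondins, was the exception, rising from 34.6 to 41.8 TPM in exHindgut to 94.2, 87.2 and 87.7 TPM in exColon (1.25, adjusted p = 0.0041). Lgr5, the marker of the adult intestinal stem cell, was at 0 in every exColon library and at 2.06 to 6.05 TPM in exHindgut (adjusted p = 0.018). In the embryonic cells 8 of 13 tested list members fell and none rose, with a median of -2.21, where 16.6% of all genes tested fell.

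Among 18 Hedgehog, Notch and BMP pathway genes, 17 were tested, 7 fell and 1 rose (median -1.40). Of all genes tested, 6.71% fell and 3.63% rose. Bmp4, a BMP ligand, went from 122, 187, 173 and 124 TPM to 2.43, 0 and 0 TPM (-6.63 ± 0.48, adjusted p = 3.64e-05). Hey1, a Notch target, went from 38.8 to 68.9 TPM to 0 in all exColon libraries (adjusted p = 4.09e-05). Without exHindgut replicate 2 the falls numbered 4. The rise was that of Id2, an inhibitor of basic helix-loop-helix factors, from 574, 1179, 874 and 920 TPM to 2202, 3404 and 2562 TPM (1.64, adjusted p = 0.0016), and its relatives moved the other way. Id1 went from 675, 1146, 700 and 809 TPM to 314, 197 and 36.5 TPM (-2.62 ± 0.58, adjusted p = 0.016, and 0.0563 without exHindgut replicate 2). Id3 went from 1276, 1673, 1112 and 1146 TPM to 226, 274 and 8.89 TPM (-3.92 ± 0.93, adjusted p = 0.0219), a call that did not hold without any one exHindgut library (adjusted p = 0.0579 to 0.0675). In the embryonic cells 10 of 17 tested list members fell and 2 rose, with a median of -1.96. Of all genes tested there, 16.6% fell and 4.16% rose.

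**Figure D2:**
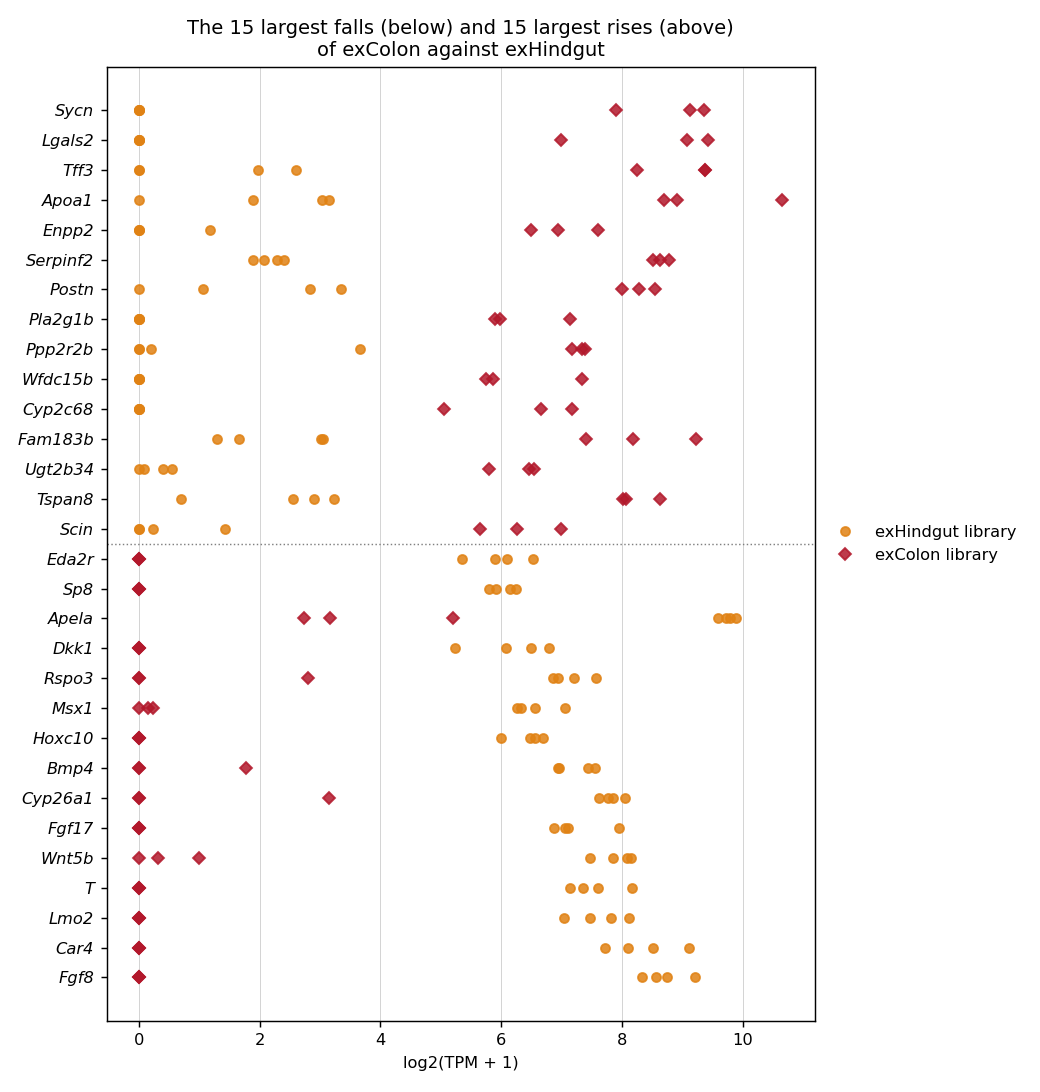
The 15 largest rises (upper) and 15 largest falls (lower) among called genes whose groups do not overlap and whose higher group averages at least 10 TPM, as log2(TPM + 1); circles are the 4 exHindgut libraries and diamonds the 3 exColon libraries. Most falling genes sit at 0 in exColon, and several rising genes, Sycn, Lgals2 and Pla2g1b among them, sit at 0 in all exHindgut libraries.

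The 15 largest rises included genes for secreted proteins as well as genes for intracellular and membrane proteins. Sycn (chr7:28540885-28542209), which encodes syncollin, a zymogen granule protein best known from the exocrine pancreas, was at 0 in all 4 exHindgut libraries and at 239, 655 and 556 TPM in exColon (adjusted p = 3.44e-06). Lgals2, a galectin of the gut epithelium, was likewise at 0 in exHindgut and at 538, 126 and 688 TPM in exColon (adjusted p = 2.72e-05). Pla2g1b, the phospholipase of pancreatic juice, was at 0 in exHindgut and at 59.0, 61.9 and 140 TPM in exColon (adjusted p = 5.34e-05). All 3 genes also rose in the embryonic cells. In emColon, Sycn was at 23.7 to 207 TPM, Lgals2 at 87.5 to 318 TPM and Pla2g1b at 16.2 to 87.1 TPM.

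Other large rises started from a low but listed level. Serpinf2, the plasmin inhibitor α2-antiplasmin, went from 3.90, 4.28, 2.7 and 3.19 TPM to 366, 438 and 397 TPM (6.48 ± 0.27, adjusted p = 1.64e-06). Postn, which encodes the matrix protein periostin, went from 1.08, 0, 6.09 and 9.16 TPM to 256, 311 and 372 TPM (6.47 ± 0.71, adjusted p = 4.35e-04). Tspan8, a tetraspanin of gut epithelia, went from 4.88, 6.47, 0.622 and 8.44 TPM to 269, 396 and 259 TPM (5.90 ± 0.55, adjusted p = 1.58e-04). In each case the lowest exColon library exceeded the highest exHindgut library by a wide margin. Cyp2c68 and Ugt2b34, of the drug-metabolising P450 and glucuronosyltransferase families, also stood among the 15 largest rises, but their families hold near-identical copies between which the authors' quantification may divide reads.

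The visceral endoderm, the tissue from which these cells descend, and the later gut and liver share genes for apolipoproteins and carrier proteins, and these were higher in exColon. Of 16 such genes 13 were tested, 8 rose and none fell, with a median of 3.40. Summed over the list, TPM was 176 to 839 in exHindgut and 3884 to 10042 in exColon. Afp, the fetal serum carrier α-fetoprotein, was at 1374, 2761 and 3462 TPM in exColon and at 22.1, 109, 437 and 176 TPM in exHindgut (4.32 ± 0.78, adjusted p = 0.00635). Rbp4, the plasma carrier of retinol, was at 844, 1650 and 2485 TPM against 85.1, 40.4, 31.5 and 41.6 TPM (5.01 ± 0.39, adjusted p = 5.34e-05). Neither gene overlapped between the groups, and Afp varied widely among the wild-type pools.

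Apoa1, the main apolipoprotein of high-density lipoprotein, went from 0, 2.69, 7.22 and 7.88 TPM to 479, 413 and 1616 TPM (7.40 ± 0.75, adjusted p = 2.49e-04). Trf, the iron carrier transferrin, went from 10.9, 18.2, 24.4 and 23.3 TPM to 390, 559 and 791 TPM (4.85 ± 0.32, adjusted p = 2.38e-05). Ttr, transthyretin, was at 206, 364 and 516 TPM against 4.48, 95.9, 201 and 125 TPM and did not pass (adjusted p = 0.138). In the embryonic cells 10 of 14 tested list members rose and 1 fell between emHindgut and emColon, with a median of 3.51, and no member was called by limma as differing between the extraembryonic and the embryonic change (3 of 14 had an unadjusted p under 0.05), as 0.768% of 13407 genes were.

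Differentiation genes of the gut epithelium gave a mixed picture. Of 25 absorptive enterocyte genes, 11 were tested, 4 rose (2 without exColon replicate 1) and 2 fell. Without that replicate Vil1 lost its call (adjusted p = 0.0523). Muc13 no longer passed the filter on low values there and was not tested. Lgals4, a galectin of the brush border, went from 0.771, 4.21, 0.160 and 0.661 TPM to 96.1, 71.0 and 60.9 TPM (5.20 ± 0.57, adjusted p = 4.36e-04). Muc13, a membrane mucin, was at 0 in all exHindgut libraries and at 17.2, 6.0 and 55.0 TPM in exColon (adjusted p = 0.00323). The opposite pattern came from the carbonic anhydrases, which hydrate carbon dioxide: Car4 was at 211, 551, 272 and 363 TPM in exHindgut and Car2 at 44.8, 58.2, 45.7 and 44.8 TPM, and both were at 0 in every exColon library (adjusted p = 1.64e-06 and 4.09e-05).

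Few genes of secretory cells passed the filter. Of 10 goblet cell genes 4 were tested and 1 was called, Tff3, a trefoil peptide that protects the mucosa, which went from 2.93, 0, 0 and 5.09 TPM to 304, 667 and 664 TPM (7.86 ± 0.67, adjusted p = 8.54e-05). Muc2, the goblet cell mucin, and the fate factor Atoh1 were at 0 in all exColon libraries. Of 15 enteroendocrine genes 3 were tested and all 3 fell (1 without exColon replicate 2 or exHindgut replicate 2, 3 or 4), and 12 were at 0 throughout exColon, including the hormone granule gene Chga and the fate factor Neurog3. Isl1 went from 108, 205, 127 and 76.9 TPM to 0.0821, 2.00 and 5.69 TPM (-5.45 ± 0.58, adjusted p = 3.60e-04). Isl1 is a transcription factor of endocrine cells that is also active in other tissues, motor neurons among them.

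Among 18 endoderm transcription factors, 15 were tested, 5 rose, among them Foxa1, Hnf4a and Isx, and 1 fell, Sox17. Isx, an intestine-specific homeobox factor, was at 0 in all exHindgut libraries and at 85.1, 7.71 and 53 TPM in exColon (adjusted p = 0.002). Hnf4a, a nuclear receptor required for intestinal and liver epithelium, was at 0, 0, 0.116 and 0 TPM in exHindgut and at 6.07, 22.2 and 21.9 TPM in exColon (3.92 ± 0.56, adjusted p = 0.00175). Sox17, an early endoderm factor, was at 39.7, 22.6, 12.2 and 14.2 TPM in exHindgut and at 0 in exColon (adjusted p = 7.82e-04). Foxa1, a pioneer factor of endoderm, was called at 1.18 ± 0.33 (adjusted p = 0.0434) and lost the call without exColon replicate 2 or 3 or any one exHindgut library (adjusted p up to 0.111). The number of list members that rose was 3, 1 and 1 without exColon replicates 1, 2 and 3, and 3 without exHindgut replicate 2, 3 or 4. Isx and Hnf4a did not pass the filter on low values once any exColon library was left out. The counts without an exColon replicate therefore do not test their calls.

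The p53 target list held 25 genes, all of which passed the filter on low values. Binding of p53 to DNA is best known through a 10-letter half-site consensus that occurs in pairs. In RefSeq promoter windows reaching from 250 bases before to 50 after each annotated start (build GRCm38.p6), 19 of the 25 genes had a window, and 9 of them held the half-site consensus: Aen, Bax, Ccng1, Cdkn1a, Ei24, Gadd45a, Mdm2, Polk and Sesn1. Of all 32851 windows, 8.36% held it (9.55% of 27025 genes). The core letters of a full site, CATG followed by any 6 letters and CATG again, a pattern that reads the same on both strands, was in 0.712% of windows and in 1 list gene, Cdkn1a. Sequences are shown for the 4 genes that both fell in exColon and carry a match. They are printed 5′ to 3′ on the gene's strand, with the matched letters in capitals (the paired CATG for Cdkn1a, whose half-site match at 51 bases before the start overlaps it, and the half-site for the others). Each match is a description of these letters, not evidence of binding.
Cdkn1a: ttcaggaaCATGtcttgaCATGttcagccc
Aen: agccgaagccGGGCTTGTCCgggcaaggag
Bax: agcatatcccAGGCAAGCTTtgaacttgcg
Ccng1: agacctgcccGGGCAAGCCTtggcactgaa
The Cdkn1a stretch lies at chr17:29090923-29090952 on the plus strand, with its match 48 bases before the upstream one of 2 annotated starts. The Aen stretch is chr7:78895927-78895956 on the plus strand, 121 bases before one annotated start and 10 after another. The Bax stretch is chr7:45467080-45467109 on the minus strand, 201 bases before the start, and that of Ccng1 is chr11:40755452-40755481 on the minus strand, 185 bases before the start.

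Of the 25 p53 target genes, 12 fell in exColon, none rose and 13 did not pass, against 6.71% of all tested genes that fell. The median log2 difference was -1.09, where all genes had -0.21, and 24 of 25 values were negative. After quantile normalization 9 fell, with a median of -1.01. Summed over the list, TPM was 2463, 2506, 2145 and 2890 in exHindgut and 988, 702 and 1147 in exColon. The list was drawn up with results of these libraries known, so its direction is a description.

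Cdkn1a (chr17:29090976-29100727), the p21 cell cycle inhibitor, was at 586, 701, 490 and 541 TPM in exHindgut and at 92.4, 83.9 and 119 TPM in exColon. The groups were widely separated and even within themselves. The mean was 5.89-fold lower (-2.55 ± 0.18, adjusted p = 2.72e-05). In a fit of all 14 hindgut and colon libraries, which share 1 estimate of the spread with the uneven emColon values, the adjusted p was 0.0623. Ccng1, the cyclin G1 gene, was at 158, 139, 90.2 and 155 TPM in exHindgut and at 31.2, 23.2 and 9.95 TPM in exColon, a 6.32-fold lower mean (-2.71 ± 0.37, adjusted p = 0.00143). Trp53inp1, which promotes p53-dependent death, was at 57.3, 41.9, 48.1 and 52.9 TPM and at 12.4, 8.43 and 11.9 TPM (-2.10 ± 0.30, adjusted p = 0.00166). For these genes, too, no exColon library reached the lowest exHindgut one.

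Among the other targets that fell, several act in cell death. Eda2r (chrX:97333840-97377216), a receptor of the TNF family, was at 58.5, 91.1, 39.8 and 67.6 TPM in exHindgut and at 0 in all 3 exColon libraries (adjusted p = 4.09e-05). Phlda3, an inhibitor of AKT signalling, was at 147, 91.2, 130 and 243 TPM against 20.8, 0 and 11.1 TPM (-4.49 ± 0.87, adjusted p = 0.0086). Aen, an apoptosis-enhancing nuclease, was at 55.8, 51.5, 77.1 and 93.9 TPM against 18.3, 3.90 and 2.99 TPM (-3.25 ± 0.53, adjusted p = 0.00363). In Phlda3 the lowest exColon library was replicate 2, and in Aen it was replicate 3. Pmaip1, which encodes the BH3 protein Noxa, was at 27.3, 42.8, 26.5 and 39.3 TPM against 9.52, 0.132 and 0.335 TPM (-3.77 ± 0.73, adjusted p = 0.00908). Bax, an executioner of mitochondrial permeabilisation, fell from 725, 715, 683 and 878 TPM to 373, 257 and 338 TPM (-1.22 ± 0.16, adjusted p = 0.00105).

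The other called targets were Zmat3, Fas, Tnfrsf10b and Apaf1. Zmat3, an RNA-binding p53 effector, went from 15.1, 16.7, 16.0 and 22.6 TPM to 1.40, 0.415 and 1.52 TPM, whereas Fas, a death receptor, was low throughout, at 1.65 to 7.46 TPM in exHindgut and 0 in exColon. The remaining 13 targets did not pass. Bbc3, which encodes the death effector Puma, was at 21.3, 0.647 and 15.8 TPM in exColon and 17.2, 13.1, 6.31 and 16.3 TPM in exHindgut (-0.66, adjusted p = 0.653). The range in exColon covered that of exHindgut. Mdm2, the negative regulator of p53, was at 34.8, 24.0 and 42.5 TPM in exColon and 50.5, 39.9, 32.6 and 61.0 TPM in exHindgut (-0.43, adjusted p = 0.40). Perp, a desmosomal p53 target, spread from 8.38 to 61.0 TPM in exColon and did not pass (-0.88 ± 0.55, adjusted p = 0.333). Btg2, an antiproliferative gene, and Sesn1, a stress-induced regulator of growth, had differences of -0.01 and -0.04.

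**Figure D3:**
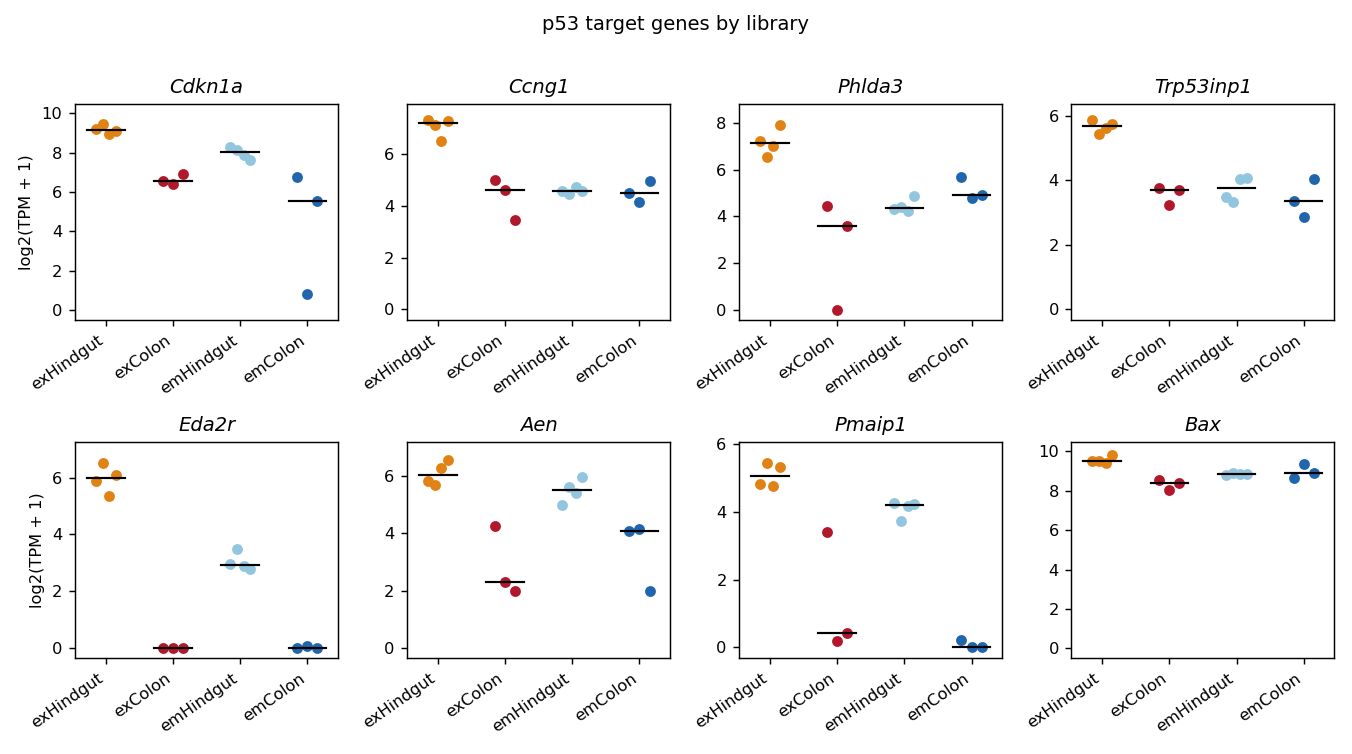
Expression of 8 p53 target genes as log2(TPM + 1) in exHindgut, exColon, emHindgut and emColon; each point is 1 library and the black line is the group median. exHindgut has the highest median in all 8 panels, and Eda2r is at 0 in all exColon libraries.

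The embryonic cells were wild type at both stages, but their sort gate, pooling and bead enrichment changed with stage: emHindgut libraries were pools of bead-enriched cells from the low-mCherry gate, and emColon libraries were GFP-positive cells of single embryos. Of 24 p53 targets tested there, 5 fell and none rose between emHindgut and emColon, against 16.6% of all genes tested that fell, with a list median of -0.64. Summed TPM was 1165 to 1276 in emHindgut and 847 to 984 in emColon. At E9.5 all 4 exHindgut libraries exceeded all 4 emHindgut libraries for 15 of the 25 targets, against 5.06% of 13407 genes, and lay below all of them for 0 targets, against 6.56% of genes. At E13.5 all 3 exColon libraries exceeded all emColon libraries for 2 targets (9.99% of genes) and lay below them for 3 (4.23% of genes). With 3 against 3 libraries full separation is more frequent by chance than with 4 against 4, so the counts of the stages are not set against each other. The list was drawn up with results of these libraries known, so its counts are a description. Extraembryonic sums in the colon (702 to 1147) overlapped the embryonic ones, and those in the hindgut (2145 to 2890) did not. The sums weigh abundant genes most, Cdkn1a and Bax among them. The median TPM over the 25 targets was 32.8 to 52.9 in exHindgut and 16.1 to 19.2 in emHindgut. It was 9.86 to 18.3 in exColon and 10.7 to 14.8 in emColon.

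The difference between these changes was called for 103 of 13407 genes (0.768%), 35 of them with the more negative change in the extraembryonic cells (0.261%). Among the 25 p53 targets 5 were called, all negative: Ccng1, Phlda3, Bax, Eda2r and Fas, of which Bax and Fas are named because of this result. The list was drawn up with results of these libraries known, so this share is a description. A target higher in exHindgut than in emHindgut tends to a negative term. Ccng1 was at 22.7, 21.3, 25.7 and 22.9 TPM in emHindgut and 21.4, 16.8 and 30.3 TPM in emColon, levels that exColon reached from above (difference of changes -2.65 ± 0.49, adjusted p = 0.02). Bax was at 449 to 480 TPM in emHindgut and 393, 653 and 473 TPM in emColon (difference of changes -1.33 ± 0.23, adjusted p = 0.0159). Phlda3 was at 17.8 to 28.1 TPM and at 50.9, 26.8 and 29.4 TPM, so that the embryonic level did not fall while the extraembryonic one did (-5.18 ± 1.02, adjusted p = 0.0289). Leaving out one library ended the call of Ccng1 in 5 cases (emHindgut replicates 1 and 4, exHindgut replicates 1, 2 and 4, adjusted p = 0.0501 to 0.0596) and of Phlda3 in 7 (each emHindgut replicate and exHindgut replicates 1, 3 and 4, adjusted p up to 0.0737). The Eda2r term (adjusted p = 0.0365) failed without any one emHindgut library or exHindgut replicate 1, 2 or 4 (up to 0.105), or with a pseudocount of 0.1 (0.121). The Phlda3 term was also lost with that pseudocount (0.113), without a filter (0.0721) and without a mean-variance trend (0.0536). That of Fas (adjusted p = 0.0478) failed without any single exColon, exHindgut or emHindgut library (up to 0.111), and with FPKM, either rescaling, a stricter filter or none (up to 0.0735). The Bax term was kept under every left-out library and was lost under a fit without a mean-variance trend (adjusted p = 0.0937). Only the extraembryonic arm changed genotype, and the arms also differed in gate, so genotype, gate and a stage effect particular to these cells cannot be told apart.

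Rhox5 and Trap1a, which mark extraembryonic origin, stayed high. Rhox5, an X-linked homeobox gene of placenta and testis, was at 1307, 844 and 793 TPM in exColon and 814, 863, 740 and 839 TPM in exHindgut (0.24 ± 0.17, adjusted p = 0.402). Trap1a, an X-linked tumour-rejection antigen gene, was at 852, 672 and 694 TPM against 556, 484, 533 and 588 TPM (0.45 ± 0.13, adjusted p = 0.0509). Both were at 0 in every emColon library. Of 22 germline and X-linked genes of extraembryonic cells, 18 were tested and none was called by limma in either direction. Of these, 6 had an unadjusted p under 0.05. Slc25a31 was called higher without exColon replicate 1, Rhox9 lower without exHindgut replicate 1 and Tekt5 lower without exHindgut replicate 4. Rhox9 (log2 difference -2.52) and Tekt5 (-1.74) were also called lower in the fit of all 14 libraries. The list median was 0.12, and summed TPM was 2947 to 3752 in exColon and 2629 to 2779 in exHindgut. Of the 22 genes, 4 were at 0 in all exColon libraries and 1 in all exHindgut libraries. The Rhox and Xlr families hold near-identical copies, so single members are uncertain.

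Cdkn2a (chr4:89274471-89294653), the locus of p16 and of p19Arf, which stabilises p53, was at 451, 655 and 587 TPM in exColon and 205, 183, 171 and 229 TPM in exHindgut. It rose 2.86-fold (1.5 ± 0.17, adjusted p = 5.17e-04), while no emColon or emHindgut library exceeded 7.77 TPM. In the fit of all 14 libraries the adjusted p was 0.0957, and under all other alternatives the call held. Among 7 cyclin-dependent kinase inhibitors, 6 were tested, Cdkn2a rose and Cdkn1a fell, and Cdkn1b, Cdkn1c, Cdkn2b and Cdkn2d did not pass. Mfap2, a microfibril gene low in extraembryonic hindgut, was at 25.5, 98.2 and 18.5 TPM in exColon against 11.6, 2.59, 2.68 and 0 TPM (3.37 ± 0.85, adjusted p = 0.0287). Its call did not survive leaving out exColon replicate 2 or exHindgut replicate 2, 3 or 4 (adjusted p = 0.0634 to 0.0749), and emColon held 220 to 487 TPM. Mmp2, a matrix metalloproteinase, was at 3.37, 10.6, 12.6 and 15.4 TPM in exHindgut and at 0 in exColon (adjusted p = 0.00444).

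**Figure D4:**
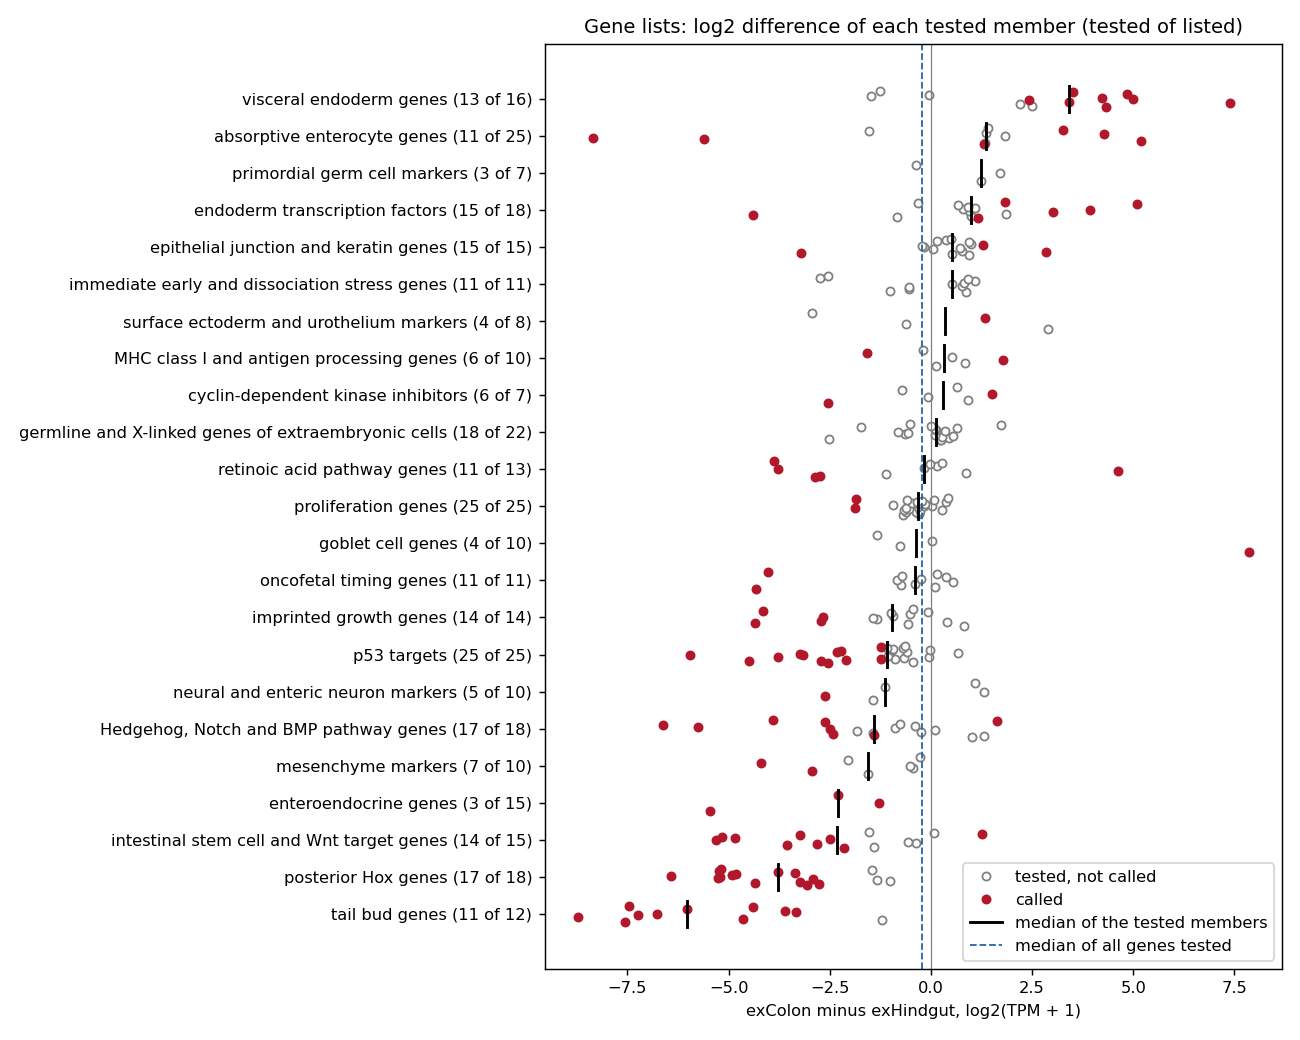
Log2 difference of exColon minus exHindgut, on the log2(TPM + 1) scale, for each tested member of 23 gene lists; filled points are called, open points are not, black bars are list medians, and the dashed line is the median of all genes tested (-0.21). Tail bud and posterior Hox lists lie furthest to the left and visceral endoderm genes furthest to the right.

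Cell cycle genes barely moved as a group. Of 25 proliferation genes, all tested, 2 fell and none rose, with a median of -0.33. There were 4 falls without exColon replicate 3, and 1 without exHindgut replicate 2, 3 or 4. Ccnd1, cyclin D1, was at 304, 222, 220 and 256 TPM in exHindgut and at 111, 40.9 and 70.1 TPM in exColon (-1.85 ± 0.30, adjusted p = 0.00342). Bub1b, a spindle checkpoint kinase, was called at -1.87 ± 0.44 (adjusted p = 0.0219) and lost the call without exHindgut replicate 2, 3 or 4 (adjusted p = 0.0642 to 0.0717). Mki67, the usual proliferation marker, was at 17.0, 8.28 and 19.8 TPM against 16.7, 20.9, 31.7 and 26.2 TPM (adjusted p = 0.31).

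All oncofetal and imprinted genes that were called fell, as did 6.71% of all genes tested. Of 11 oncofetal timing genes 2 fell: Lin28a, the RNA-binding protein that blocks let-7, went from 77.1, 98.5, 78.1 and 78.6 TPM to 3.50, 1.18 and 6.38 TPM (-4.33 ± 0.42, adjusted p = 2.00e-04). Arid3b, a DNA-binding let-7 target, went from 115, 118, 96.4 and 142 TPM to 2.89, 4.80 and 15.7 TPM (-4.03 ± 0.45, adjusted p = 4.70e-04). The means were 22.5-fold and 15.1-fold lower. Of 14 imprinted growth genes 4 fell (Mest, Phlda2, Peg10 and Ndn) and none rose. The list median was -0.96, and 11 of the 14 had an unadjusted p under 0.05 by limma. In the embryonic cells 7 of the 11 oncofetal genes fell, where 16.6% of all genes tested did. Of the 14 imprinted genes 9 fell there and 1 rose. Mest went from 316, 249, 332 and 208 TPM to 9.79, 10.5 and 18.1 TPM (-4.35 ± 0.27, adjusted p = 1.45e-05). Phlda2, a growth inhibitor of the placenta, was the least stable of the 4, with 23.1, 43.9 and 0 TPM in exColon and no call without any one exHindgut library (adjusted p = 0.0637 to 0.0928). Igf2, the growth factor, was at 176, 128 and 117 TPM against 74.6 to 83.3 TPM, a difference of 0.81 that stayed under 2-fold (adjusted p = 0.023).

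Epithelial junction genes gave few calls, though most values were higher in exColon. Of 15 junction and keratin genes, all tested, 2 rose (4 without exHindgut replicate 3 or after median-ratio rescaling) and 1 fell. Of all genes tested, 3.63% rose and 6.71% fell. The list median was 0.53, against -0.21 over all genes tested. Of the 15 log2 differences 12 were positive, and 9 had an unadjusted p under 0.05 by limma. Cldn3, a tight junction claudin, went from 62.6, 32.3, 57.8 and 70.6 TPM to 234, 364 and 684 TPM (2.83 ± 0.36, adjusted p = 0.00107), and Ocln, occludin, rose by 1.28 ± 0.26 (adjusted p = 0.0116). Cdh2, N-cadherin, went from 52.4, 46.3, 50.3 and 67.3 TPM to 3.81, 1.38 and 16.6 TPM (-3.22 ± 0.59, adjusted p = 0.00661). Epcam itself differed by 0.93 ± 0.16 (adjusted p = 0.0047), under the 2-fold limit. B2m, the light chain of MHC class I, rose from 118, 96.5, 97 and 120 TPM to 302, 349 and 476 TPM (1.77 ± 0.19, adjusted p = 3.76e-04), and among the 6 tested genes of its list Tapbp fell and the other 4 did not pass. The Tapbp call ended without exColon replicate 1 or 2 or any one exHindgut library (adjusted p = 0.0691 to 0.137). In the embryonic cells 9 of the 15 junction and keratin genes rose and 1 fell, with a median of 1.13. Of all genes tested there, 4.16% rose and 16.6% fell.

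Of 13 retinoic acid pathway genes 11 were tested, 4 fell and 1 rose, against 6.71% and 3.63% of all genes tested. Rbp2, the intestinal retinol-binding protein, rose from 0, 1.41, 3.64 and 7.82 TPM to 52.8, 89.3 and 94.1 TPM (4.62 ± 0.69, adjusted p = 0.00235). Stra6, the receptor that takes up retinol from Rbp4, went from 20.8, 21.8, 23.1 and 17.2 TPM to 0, 0 and 2.17 TPM (-3.88 ± 0.55, adjusted p = 0.00168), and Aldh1a1 and Aldh1a2, which make retinoic acid, fell as well. Crabp1, a cytoplasmic binding protein, was at 0, 22.8 and 0 TPM in exColon and 27.4 to 53.4 TPM in exHindgut, and its call failed without exColon replicate 1 or 3 or any one exHindgut library (adjusted p = 0.0724 to 0.0953). In the embryonic cells 6 of 11 tested list members fell and 1 rose, where 16.6% and 4.16% of all genes tested did. Of 12 members tested for the difference of changes, 1 was called, Crabp2, with the more positive change in the extraembryonic cells.

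Markers of other cells gave few calls. None of 9 blood and 6 endothelium markers passed the filter, and 8 of the 9 blood markers were at 0 in every exColon library. Of 7 germ cell markers 3 were tested and none was called by limma, with 2 at an unadjusted p under 0.05. However, 2 were called higher under quantile normalization, and 1 without exColon replicate 1 or in the fit of all 14 libraries. Of 8 surface ectoderm and urothelium markers 4 were tested and Upk1a, a uroplakin, was called higher (1.33 ± 0.32, adjusted p = 0.0226), though not without exColon replicate 2 or exHindgut replicate 1 or 2 (adjusted p = 0.05, 0.066 and 0.068). Krt15, a basal keratin, was at 147, 27.1 and 10.6 TPM in exColon against 5.21, 7.25, 0 and 10.1 TPM and did not pass (adjusted p = 0.0832). The 11 immediate early and dissociation stress genes were all tested and none was called by limma, 3 having an unadjusted p under 0.05, but 3 were called higher and 2 lower without exColon replicate 2. They had summed TPM of 1299 to 4146 in exColon and 1459 to 2230 in exHindgut.

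Most changes were shared with the embryonic cells. Of 11813 genes tested in both comparisons, 1206 were called between the extraembryonic groups and 2380 between the embryonic ones, and 714 were called in both, that is, 59.2% of the first set and 30.0% of the second. The direction was the same for 703 of them and opposite for 11. Of the genes called as differing between the changes, 68 had the more positive change in the extraembryonic cells (0.507%) and 35 the more negative. The number of such genes depended on single libraries: it was 270, 196 and 308 without emColon replicates 1, 2 and 3, 45, 55, 45 and 39 without emHindgut replicates 1 to 4, and 51, 54, 59 and 56 without exHindgut replicates 1 to 4.

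Several of the largest differences of change came from genes with a far lower level in exHindgut than in emHindgut. Cdx4, a posterior homeobox factor, was at 451, 509, 437 and 526 TPM in emHindgut and at 16.2, 0, 0 and 0.0797 TPM in exHindgut, and was at 0 in both colon groups (difference of changes adjusted p = 0.00396). Hoxb1, an anterior Hox gene that is also active in the posterior embryo, was at 45.3 to 65.5 TPM in emHindgut and at no more than 2.05 TPM in exHindgut, and again at 0 in the colon (adjusted p = 0.00396). Neither passed the filter in the extraembryonic comparison. Id3, in contrast, was high in both hindgut groups. It was at 0 in all emColon libraries but at 226, 274 and 8.89 TPM in exColon (adjusted p = 0.0159).

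Other genes were called for a different course in each lineage. Tnni1, the slow skeletal troponin I gene, went from 27.8, 13.4, 17.0 and 17.4 TPM to 0, 2.63 and 0 TPM in the extraembryonic cells (-3.65 ± 0.59, adjusted p = 0.00373). In the embryonic cells it rose from 13.7, 13.9, 10.6 and 6.35 TPM to 45.0, 57.8 and 34.2 TPM (1.97 ± 0.38, adjusted p = 0.00629), and the changes differed by -5.61 ± 0.71 (adjusted p = 0.00396). Rwdd3, which enhances sumoylation, went from 1.79, 2.62, 3.25 and 10.0 TPM to 14.8, 18.9 and 22 TPM in the extraembryonic cells, and from 6.93 to 17.5 TPM to 0, 0 and 0.307 TPM in the embryonic cells (difference of changes 5.36 ± 0.75, adjusted p = 0.00396). The rise itself was lost without exColon replicate 2 or 3 or exHindgut replicate 1, 2 or 3 (adjusted p = 0.0613 to 0.104). Cpb2, the fibrinolysis inhibitor carboxypeptidase B2, was at 26.1, 17.9 and 45.2 TPM in exColon, at 0 in emColon, and at no more than 1.88 TPM in either hindgut group (5.04 ± 0.73, adjusted p = 0.00396). Car2, absent from exColon, was still listed at 16.3, 3.95 and 10.1 TPM in emColon (adjusted p = 0.00637 for the difference of changes).

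**Figure D5:**
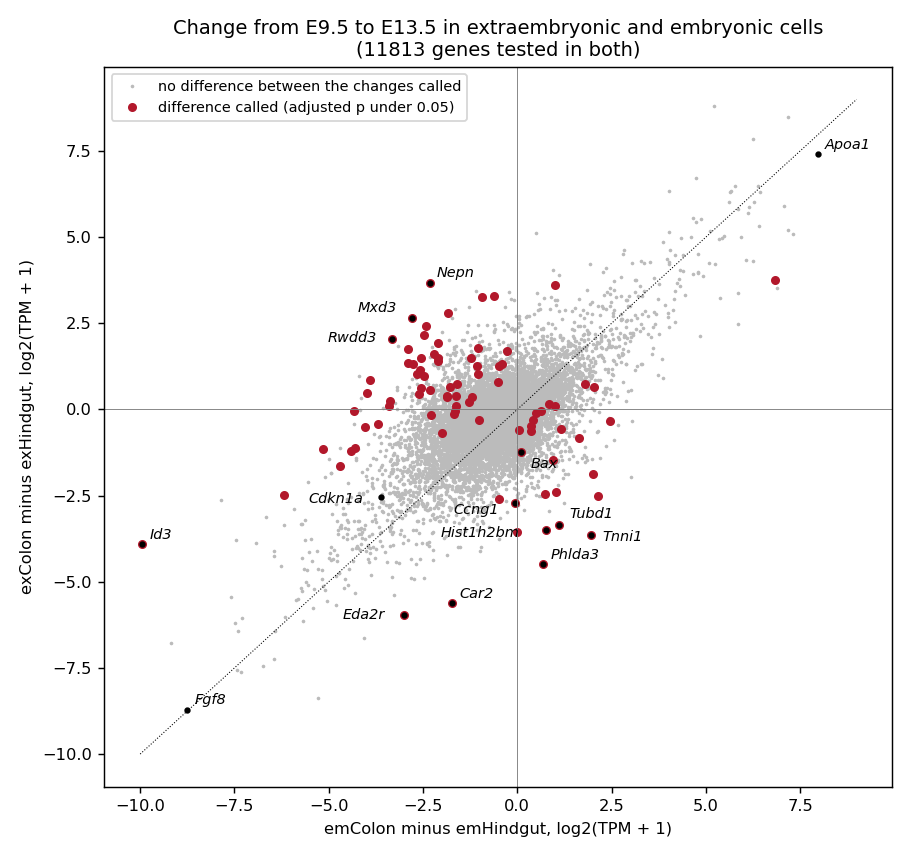
For 11813 genes tested in both comparisons, the extraembryonic change (exColon minus exHindgut, vertical) against the embryonic change (emColon minus emHindgut, horizontal), both on the log2(TPM + 1) scale; red points are the 86 genes whose changes were called as different, and the dotted line marks equal change. Fgf8 and Apoa1 lie near that line at its ends, whereas Ccng1, Phlda3 and Tnni1 lie below it.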

How the data were processed

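RNA libraries of sorted cells were analysed from the authors' tables, 1 per library. According to the methods, reads were trimmed with cutadapt 4.1, aligned with STAR 2.7.9a to mm10 plus the reporter sequences, and quantified with StringTie 2.0.6 on a GENCODE annotation. The deposited TPM values per gene were used for every result, summed per gene identifier. The deposited FPKM values served as an alternative, and the deposited coverage gave the aligned bases. No read counts per gene were used, so the sampling error of a single value is unknown, and the number of libraries limits the precision.

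Values were transformed as log2(TPM + 1), which understates changes of low genes. Protein-coding genes (GENCODE vM21 types; 32237 of 32287 identifiers matched) not on the Y chromosome were kept if 3 or more of the compared libraries exceeded 1 TPM, and were fitted with limma 3.58.1 (eBayes with trend; R 4.3.3), two-sided, with Benjamini-Hochberg adjustment over all genes tested. Calls required that the adjusted p lay below 0.05 and the log2 difference beyond 1 in either direction; the difference between the extraembryonic and embryonic changes, an interaction term over the 14 hindgut and colon libraries, needed the adjusted p alone. All adjusted p-values are from these fits. The filter is uneven between the groups. A gene absent from exHindgut had to exceed 1 TPM in all 3 exColon libraries, whereas a gene absent from exColon needed 3 of the 4 exHindgut libraries. It therefore admits falls more readily than rises. With 3 against 4 libraries an exact permutation test of 1 gene has little reach and was not used. The script was tested on simulated data. Summaries used Python 3.11.15 with pandas 2.3.3 and NumPy 2.4.6, and statmod 1.5.0 served for the replicate block.

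The libraries and the 25 gene lists were chosen with earlier results of these data known. Genes named are fixed reporters and origin, endoderm and p53 genes, the 15 largest rises and falls with groups that do not overlap and a mean of at least 10 TPM, the 4 members of each list with the largest difference, and the 8 largest differences of change in each direction. A few genes of these lists are not reported here. Others were named after their values were seen, Bax and Fas for their differences of change. Results were recomputed with FPKM, a pseudocount of 0.1, a filter of 5 TPM or none, quantile and median-ratio scaling, eBayes without trend, all gene types, all 14 libraries in a single fit, a replicate block, and leaving out each library.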

Additional observations from a re-analysis of the deposited data

Results flagged for a closer look

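A single exHindgut library stood apart from the other 3 by Dixon's criterion for 4 libraries in 11 of 139 named genes tested. The criterion flags about 1 in 20 groups of normally distributed values, and TPM with several libraries at 0 is not such a case. The 11 genes are therefore not set against that rate. The outlying values were 1.26 TPM for Enpp2, 11.7 for Ppp2r2b, 1.69 for Scin, 246 for Fgf17, 0.116 for Hnf4a, 58.2 for Car2, 4.21 for Lgals4, 98.5 for Lin28a, 20.6 for Prdm1, 34.9 for Upk3a and 1.54 for Cpb2. Each was the highest library of its group.

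For 20 named genes the extraembryonic change differed from the embryonic change by the interaction term of limma, here given on the log2(TPM + 1) scale, where a group at 0 contributes its pseudocount. More negative in the extraembryonic cells were the p53 targets Phlda3 (-5.18), Fas (-3.69), Eda2r (-2.96), Ccng1 (-2.65) and Bax (-1.33), and Tnni1 (-5.61), Arhgap36 (-4.66), Tubd1 (-4.46), Cbln2 (-4.29), Hist1h2bm (-4.25), Cpq (-3.90) and Car2 (-3.88). Cbln2 was at 20.7, 25.1 and 24.0 TPM in emColon and at 0 in exColon. More positive were Cdx4 (7.85), Id3 (6.03), Nepn (6.0), Mxd3 (5.45), Rwdd3 (5.36), Hoxb1 (5.08), Cpb2 (5.04) and Sdr42e1 (4.85). Most of the 20 were named because this term was called, so their number follows from that choice. Leaving out 1 library ended the call of Sdr42e1 in 11 of 14 cases and of Nepn in 10. It ended that of Cpq in 8, Arhgap36 in 7 and Tubd1 in 3 (limma adjusted p up to 0.113). Nepn, a small proteoglycan gene, was at 18.7, 34.9 and 40.9 TPM in exColon and at most 1.29 TPM in emColon.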

How the results depend on the processing

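The number of genes called between exColon and exHindgut was 1281, with 450 higher and 831 lower. Leaving out each library gave 828 to 1508 (308 to 451 higher, 520 to 1107 lower); of the exHindgut libraries, replicate 3 gave 868. For the embryonic cells the 2562 calls became 1671 to 3072 (390 to 593 higher, 1269 to 2479 lower). For the difference of changes the 103 calls became 39 to 308 (22 to 242 positive, 17 to 66 negative). Scaling moved the embryonic rises to 919 under quantile normalization and 807 under median-ratio rescaling, the falls to 863 and 1294, and the 68 positive differences of change to 40 and 42. The replicate numbers of exColon and exHindgut do not pair the samples (correlations of same-numbered deviations -0.0194 to 0.0122). Between exColon and emColon these were 0.015 to 0.0278, and the same number was the best match for each exColon replicate. Between exHindgut and emHindgut they were -0.0128 to 0.0463, with the same number best for exHindgut replicates 1, 2 and 4. The main fits did not use this pairing. With a replicate block 1315 genes were called, and 126 for the difference of changes, and 0 of 162 named values changed their call. Of 98 named calls, 6 to 16 were lost when a library was left out. Uncalled values that changed sign were those of Agr2 (-2.36 to 0.038 over left-out libraries; 0.038 without exColon replicate 2 or 3), Clca1 (-1.31 with a pseudocount of 0.1, -0.123 to 0.558 over left-out libraries, negative without exHindgut replicate 1 or 4), Tap1 (-0.673 to 1.57, negative without exColon replicate 1 or exHindgut replicate 2), Trp63 (0.073 under quantile normalization, -1.43 to 0.233 over left-out libraries, positive without exColon replicate 3) and Krt8 (-0.056 to 0.331, negative without exColon replicate 2 or exHindgut replicate 1). The cause was not tested. The goblet cell list median of -0.37 became positive, 0.28, under quantile normalization. The uneven exColon libraries limit what low genes can show.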
